A study of Mus musculus with 8 samples.

Results

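The genes described here encode the subunits, activators and assembly factors of the proteasome. They were taken as all protein-coding mouse genes of GENCODE M21 with a symbol that starts with Psm, a letter from a to g and a number, pseudogenes left out. This gave 50 genes, of which 49 matched a row of the 37310 in the expression table. The identifier of Psmb9 matched none, and this gene is not analysed here. Psmc3ip has such a symbol but encodes a meiotic recombination factor, so 48 proteasome genes remained, and Psmc3ip is given apart. Of these 48, 45 reached 1 FPKM (fragments per kilobase of transcript and per library size) in at least 4 of the 8 libraries and were tested. Psma8, Psmb8 and Psmb11 did not. Psmb10 and Psme2b passed this filter through the control libraries alone, so for both a difference followed from the filter.

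The proteasome is the protease complex that degrades most short-lived and damaged proteins of a cell after these have been tagged with ubiquitin. Its core particle is a barrel of alpha and beta rings with the catalytic sites inside. A regulatory particle made of a base and a lid receives tagged proteins, removes the ubiquitin, unfolds the protein and feeds it into the barrel. In the early embryo this complex removes proteins inherited from the egg while the embryo's own genome is switched on.

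The libraries hold polyadenylated RNA of mouse 2-cell embryos, cultured as fertilized eggs in G1 medium. In 4 libraries the medium held 6 µM triclocarban (TCC), an antibacterial compound of soaps, and in 4 control libraries it held an equal volume of the solvent DMSO. The series title names the maternal-to-zygotic transition, in which transcripts of the egg give way to those of the embryo. The labels give no strain, hour of collection or number of embryos per library. They do not say whether a group's libraries came from independent cultures either, and the tests below reflect the variation among these 8 libraries only. FPKM is a share of the RNA in a library, so less of a transcript per embryo and more of all other RNA cannot be told apart.

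Markers of the oocyte and of the 2-cell embryo were present in all 8 libraries, Gdf9 and Zfp352 among them. The summed level of 8 oocyte and zygote markers was 4842 to 7712 FPKM with TCC, against 1386 to 4259 FPKM in controls, and that of 7 markers of the 2-cell embryo was 178 to 523 FPKM with TCC, against 542 to 692 FPKM in controls. In the first list Btg4 was the highest, at 2730 to 5286 FPKM with TCC, against 870 to 2717 FPKM in controls. Zp3 went the other way, at 12.5 to 33.9 FPKM with TCC, against 49.0 to 60.8 FPKM in controls. The groups overlapped for Gdf9 and Padi6, and the other genes of the list were higher in every TCC library than in any control. The genes of the second list did not move alike either. Dppa4, Zfp352, Eif1a and Tdpoz4 were lower in every TCC library than in any control, and the groups overlapped for Zscan4c, Zscan4d and Usp17lc. Dppa4 was at 10.96 to 15.8 FPKM with TCC, against 66.0 to 258 FPKM in controls, and Zfp352 at 47.8 to 139 FPKM with TCC, against 194 to 251 FPKM in controls. Zscan4c was at 33.8 to 130.2 FPKM with TCC, against 23.9 to 50.4 FPKM in controls, and Zscan4d at 56.1 to 183 FPKM with TCC, against 55.8 to 135 FPKM in controls. Of 11 cumulus and granulosa cell markers, Amh and Inha were at 0 in every library, and 4 reached 1 FPKM in a library. These were Cyp19a1, at 6.55 to 11.9 FPKM with TCC, against 1.23 to 4.47 FPKM in controls, Fshr, at 1.49 to 4.75 FPKM with TCC, against 0.158 to 2.57 FPKM in controls, Nr5a2, at 3.75 to 7.13 FPKM with TCC, against 6.43 to 15.1 FPKM in controls, and Tnfaip6, at 0.23 to 0.494 FPKM with TCC, against 1.53 to 5.01 FPKM in controls. The part of these markers in the results was not tested. Controls 3 and 4 stood apart from controls 1 and 2: both lay above both for 27 of the 45 genes tested, and below both for 10. Most of the markers in these lists of the oocyte and the 2-cell embryo split these controls too. Every oocyte and zygote marker but Zp3 was lower in both of controls 3 and 4 than in both of controls 1 and 2. Of the 2-cell embryo markers, Dppa4, Eif1a and Tdpoz4 were higher in both of controls 3 and 4, and Zfp352, Zscan4c, Zscan4d and Usp17lc lower. Btg4 was at 2717 and 2062 FPKM in controls 1 and 2, against 892 and 870 FPKM in controls 3 and 4. Dppa4 was at 66.0 and 73.7 FPKM in controls 1 and 2, against 258 and 215 FPKM in controls 3 and 4. Zp3 did not split them. TCC library 2, which had the smallest FPKM sum, was the lowest TCC library for 31 of the 45. The sum was 477882 to 563651 with TCC and 533941 to 605986 in controls. These counts of 27, 10 and 31 were not made over all genes tested, so they do not show a trait particular to proteasome genes.

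Proteasome genes moved in both directions. Of the 45 tested, 10 rose with TCC, 17 fell and 18 did not pass the threshold (limma, Benjamini-Hochberg adjusted p under 0.05 over all 12941 genes tested). These are 22.2% and 37.8%, where 11.3% of all genes tested rose, 30.8% fell and 42.1% did either. The 17 include Psmb10 and Psme2b, which passed the filter on low values through the controls alone. The median log2 change of the 45 was -0.09, and that of all genes tested was -0.19. Every TCC library lay above every control for 7 proteasome genes and below every control for 15, against 10.2% and 30% of all genes tested. The proteasome genes together held 0.442 ± 0.0469% of the FPKM sum with TCC and 0.427 ± 0.0957% in controls (SD, n = 4 each), with overlapping groups. Against controls 3 and 4 alone the counts were 11 higher and 20 lower of 45, beside 21.9% and 32.6% of all genes tested. Against controls 1 and 2 alone they were 11 higher and 13 lower, beside 5.37% and 25.1%. Without TCC library 2 they were 11 higher and 16 lower, beside 14% and 32.3%.

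**Figure D1:**
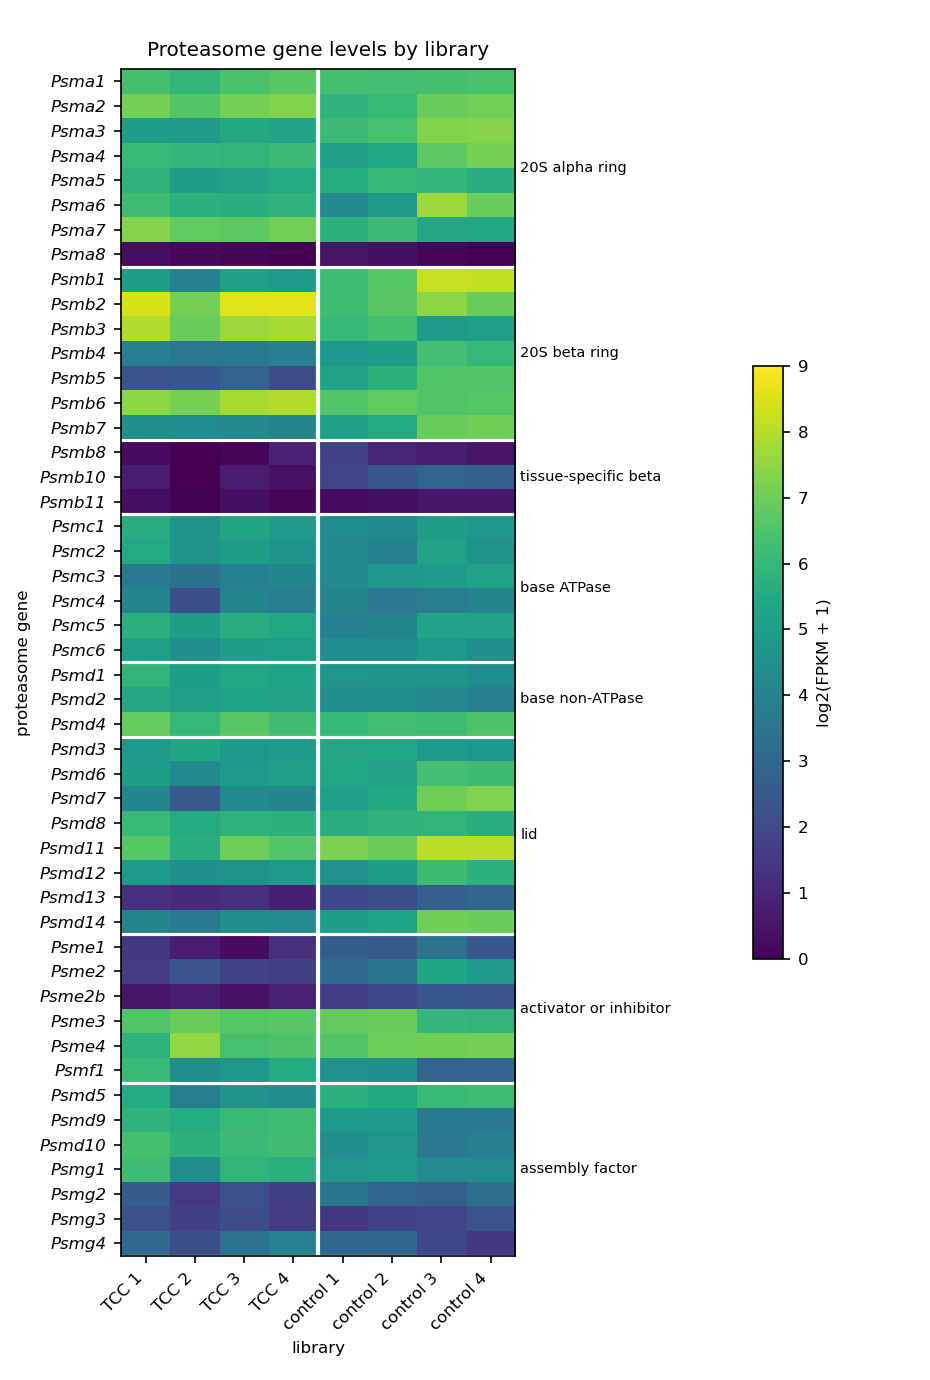
Level of each of the 48 proteasome genes (rows, by part of the complex) as log2(FPKM + 1) in the 4 TCC and the 4 control libraries (columns), with yellow for high and dark blue for low. In the beta ring Psmb2, Psmb3 and Psmb6 are brighter on average with TCC, and Psmb1, Psmb4, Psmb5 and Psmb7 darker.

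The constitutive beta ring, which holds the catalytic sites, had every gene past the threshold: of 7, 3 rose, 4 fell and 0 missed it. Over all genes tested 11.3% rose, 30.8% fell and 42.1% did either. The catalytic subunits were split. Psmb5 encodes the one with chymotrypsin-like activity (chromosome 14, 54614119 to 54618022, minus strand, GRCm38). It had 4.04, 4.52, 6.28 and 3.24 FPKM in TCC libraries 1 to 4, against 35.2, 53.8, 93.8 and 93.5 FPKM in controls 1 to 4. Every TCC library was far below every control, and this was the deepest fall of any proteasome gene (log2 change -3.58, SE 0.35, adjusted p = 5.21e-05). Psmb7, the gene of the subunit with trypsin-like activity, had 22.1, 19.9, 18.4 and 15.7 FPKM in TCC libraries 1 to 4, against 34.6, 43.9, 119 and 132 FPKM in controls 1 to 4. No TCC library reached a control, and controls 1 and 2 lay nearest to them (log2 change -1.84, SE 0.42, adjusted p = 0.00439). Its exons overlap those of Nek6 on the opposite strand over 11.8% of their length, and the strand setting of the authors' counting is unknown here.

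Psmb6, which encodes the catalytic subunit with caspase-like activity (chromosome 11, 70525367 to 70527858, plus strand), went the other way. It had 177, 141, 222 and 243 FPKM in TCC libraries 1 to 4, against 95.1, 109, 93.1 and 97.2 FPKM in controls 1 to 4. Each TCC library was above each control, and the controls lay close together (log2 change 0.95, SE 0.25, adjusted p = 0.00958). The level of Psmb6 over that of Psmb5, both per length, was 43.9, 31.2, 35.3 and 75.0 in TCC libraries 1 to 4, against 2.70, 2.03, 0.99 and 1.04 in controls 1 to 4. Over Psmb7 it was 8.02, 7.09, 12.1 and 15.4 in TCC libraries 1 to 4, against 2.75, 2.49, 0.78 and 0.73 in controls 1 to 4. Both ratios were higher in every TCC library than in any control, which follows from the separate levels of these genes and adds no further evidence. They compare transcripts, and protein was not measured.

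Among the beta subunits without a catalytic site, Psmb3 (chromosome 11, 97703399 to 97713500, plus strand) had 248, 121, 200.3 and 222 FPKM in TCC libraries 1 to 4, against 63.7, 79.4, 30.6 and 33.5 FPKM in controls 1 to 4. All TCC values exceeded all control values, with TCC library 2 the nearest (log2 change 1.98, SE 0.36, adjusted p = 0.00121). Psmb2 had the highest mean level of all proteasome genes over the 8 libraries. It had 346, 139, 391 and 398 FPKM in TCC libraries 1 to 4, against 73.5, 99.2, 171 and 119 FPKM in controls 1 to 4. TCC library 2 lay below control 3, so the groups overlapped, while the other TCC libraries were above every control (log2 change 1.41, SE 0.38, adjusted p = 0.0118). The call was lost without controls 1 and 2 together, and the adjusted p was 0.000158 to 0.0788 over the 21 alternatives.

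Psmb1 had the highest mean of the core genes in controls. Its values were 32.3, 14.5, 33.1 and 27.7 FPKM in TCC libraries 1 to 4, against 72.8, 99.0, 298 and 287 FPKM in controls 1 to 4. The TCC libraries were below every control, and controls 3 and 4 were far above controls 1 and 2 (log2 change -2.57, SE 0.47, adjusted p = 0.00126). Psmb4 fell as well, with 11.3 to 14.2 FPKM in TCC libraries, against 26.9 to 77.9 FPKM in controls (log2 change -1.75, SE 0.34, adjusted p = 0.00185).

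The sequences just before the start of transcription are shown for the deepest fall in the beta ring (Psmb5), for Psmb3 and Psmb6, which rose there, and for Psmd10, the largest rise outside it. They are from RefSeq on GRCm38.p6, 250 bases that end at the base before the annotated start. Capitals mark matches on either strand to any of 4 motifs, which were chosen with the values known. TGACNNNGC is the core of the antioxidant response element, a site of the proteasome gene activator NFE2L1. The others were CCAAT, the ETS core with the letters CCGGAA and the GC box with the letters GGGCGG.
Psmb5 (chr14:54617996-54618245, minus strand): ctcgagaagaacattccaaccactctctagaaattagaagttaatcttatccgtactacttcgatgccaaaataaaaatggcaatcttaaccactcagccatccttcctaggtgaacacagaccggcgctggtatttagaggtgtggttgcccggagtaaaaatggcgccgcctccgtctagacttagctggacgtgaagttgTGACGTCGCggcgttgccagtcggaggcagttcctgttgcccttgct
Psmb3 (chr11:97703184-97703433, plus strand): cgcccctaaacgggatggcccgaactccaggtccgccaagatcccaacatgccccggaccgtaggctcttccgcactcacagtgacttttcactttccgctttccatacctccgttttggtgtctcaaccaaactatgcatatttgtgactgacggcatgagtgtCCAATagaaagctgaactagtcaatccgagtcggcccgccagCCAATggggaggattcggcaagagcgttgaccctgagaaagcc
Psmb6 (chr11:70525107-70525356, plus strand): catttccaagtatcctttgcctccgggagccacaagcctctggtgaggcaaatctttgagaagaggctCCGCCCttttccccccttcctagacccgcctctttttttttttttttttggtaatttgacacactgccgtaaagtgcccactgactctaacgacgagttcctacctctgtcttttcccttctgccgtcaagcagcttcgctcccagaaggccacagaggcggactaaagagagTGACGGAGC
Psmd10 (chrX:140956712-140956961, minus strand): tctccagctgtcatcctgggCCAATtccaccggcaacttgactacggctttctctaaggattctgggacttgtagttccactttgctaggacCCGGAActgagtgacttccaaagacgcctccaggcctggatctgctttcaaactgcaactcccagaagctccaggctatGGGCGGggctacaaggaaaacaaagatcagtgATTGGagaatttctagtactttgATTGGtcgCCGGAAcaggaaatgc
TGACNNNGC was found in Psmb5, which fell, 47 bases before the start, and in Psmb6, which rose, 9 bases before it. CCAAT stood in Psmb3 and Psmd10, which rose. No match shares bases with another in these windows. A window was given for 40 of the 48 genes, and 12.5% of these held TGACNNNGC, against 11.9% of 8765 windows of genes tested and 10.1% of all 27025 windows. It was in 2 of the 9 windows of genes that rose, in 1 of the 12 of genes that fell and in 2 of the 17 of genes that did not pass. The ETS core was in 40.0% of proteasome windows, against 23.3% for genes tested and 12.2% of all. It was in 4 of 9 windows of genes that rose, 3 of 12 of those that fell and 9 of 17 of those that did not pass. CCAAT was in 32.5%, 37.9% and 34.5% of the same sets, and the GC box in 52.5%, 57.3% and 32.9%. By call, CCAAT was in 3 of 9 windows of genes that rose, 2 of 12 that fell and 7 of 17 that did not pass. A match is a stretch of letters, and binding was not measured.

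The alpha rings close the ends of the barrel. Of 7 genes tested, 1 rose, 1 fell and 5 did not pass, beside 11.3% risen and 30.8% fallen of all genes tested. Psma7 (chromosome 2, 180036374 to 180042433, minus strand) was the one that rose, with 162, 110.3, 106 and 135 FPKM in TCC libraries 1 to 4, against 54.7, 69.5, 42.0 and 40.9 FPKM in controls 1 to 4. The groups did not overlap (log2 change 1.31, SE 0.27, adjusted p = 0.00235). Psma3 was the one that fell, with 32.1, 29.8, 43.0 and 37.4 FPKM in TCC libraries 1 to 4, against 68.6, 82.1, 157 and 166 FPKM in controls 1 to 4. No TCC library reached the lowest control (log2 change -1.62, SE 0.33, adjusted p = 0.00215). Psma2 had the highest mean of the alpha genes, with 139, 94.6, 138 and 156 FPKM in TCC libraries 1 to 4, against 56.7, 67.2, 123 and 135 FPKM in controls 1 to 4. TCC library 2 lay between the pairs of controls, and the groups overlapped (log2 change 0.54, SE 0.33, adjusted p = 0.212). Against controls 1 and 2 alone Psma2 passed the threshold (log2 change 1.06, adjusted p = 0.019), as it did with library weights, and the adjusted p was 0.0175 to 0.974 over the 21 alternatives.

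For Psma4 and Psma6 the choice of controls set the direction. Psma6 had 72.6, 52.7, 49.2 and 56.3 FPKM in TCC libraries 1 to 4, against 18.6, 27.3, 200.3 and 123 FPKM in controls 1 to 4. The TCC libraries lay above controls 1 and 2 and below controls 3 and 4. The log2 change of Psma6 was -0.07 against all controls, 1.304 against controls 1 and 2 (adjusted p = 0.00772) and -1.44 against controls 3 and 4 (adjusted p = 0.00316; 0.00316 to 1 over the 21 alternatives). Psma4 had 67.6, 61.1, 58.5 and 68.5 FPKM in TCC libraries 1 to 4, against 34.8, 41.1, 106 and 141 FPKM in controls 1 to 4, in the same order. Its log2 change was -0.09 against all controls, 0.74 against controls 1 and 2 (adjusted p = 0.0377) and -0.93 against controls 3 and 4 (adjusted p = 0.00951; 0.00951 to 0.985 over the 21 alternatives). Psma1 and Psma5 did not pass, with log2 changes of -0.01 (SE 0.24) and -0.41 (SE 0.26). Psma8, the form of Psma7 in male germ cells, was low throughout, at 0 to 0.248 FPKM in TCC libraries, against 0 to 0.389 FPKM in controls.

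**Figure D2:**
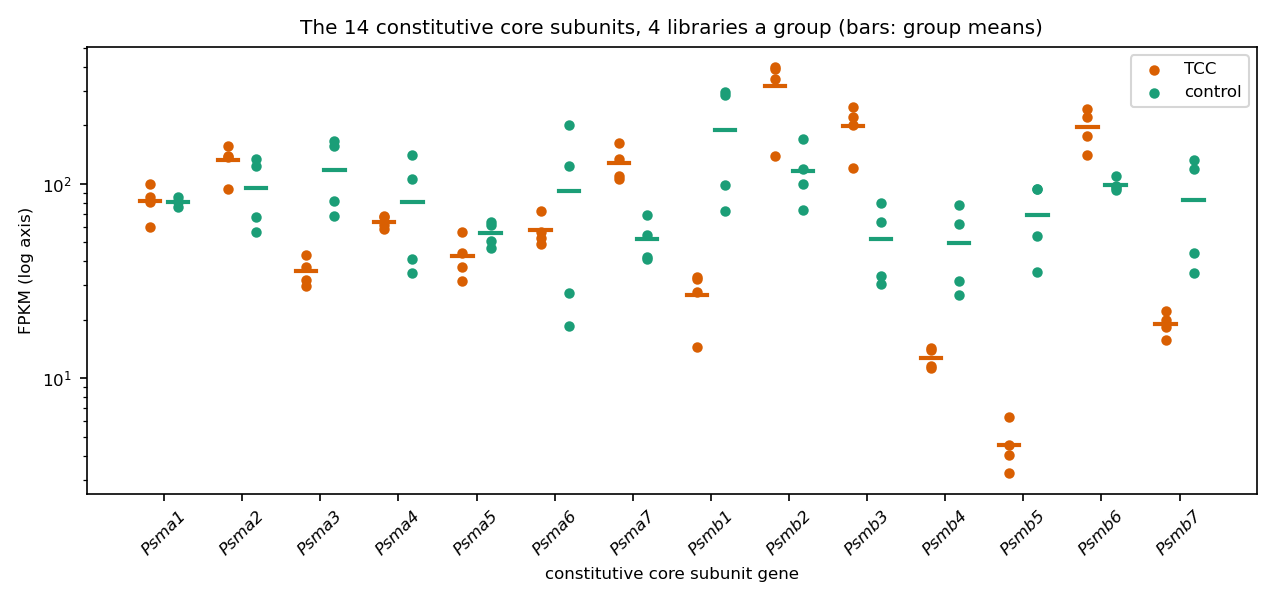
FPKM, on a log axis, of the 14 constitutive core subunit genes in each library (points), TCC left of control for each gene, with bars at the group means. The points span 3.24 to 398 FPKM in TCC libraries and 18.6 to 298 FPKM in controls.

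Core subunits enter the barrel in equal numbers, and their transcript levels lay farther apart with TCC than in controls. The standard deviation of log2(FPKM + 1) across the 14 constitutive core genes was 1.69, 1.46, 1.64 and 1.81 in TCC libraries 1 to 4, against 0.662, 0.608, 0.861 and 0.83 in controls 1 to 4. Every TCC library was above every control on this measure. The highest core gene stood 31.2 to 123 times above the lowest within a TCC library, where Psmb5 was always the lowest, and 4.01 to 9.74 times within a control. Over all 12941 genes tested the same standard deviation was 2.02 to 2.05 with TCC and 1.85 to 2.00 in controls. Over the 17 subunits of the regulatory particle with a Psmc or Psmd symbol, without Adrm1 and Sem1, it was 1.26 to 1.34 with TCC and 1.10 to 1.33 in controls, which overlap. By group mean, Psmb1 ranked 11 of 14 with TCC and 1 in controls, and Psmb3 ranked 2 with TCC and 12 in controls. The 14 genes summed to 891 to 1519.8 FPKM with TCC and 763 to 1654 FPKM in controls. These spreads are descriptions, with no test. They are computed from the levels of the same genes and add no further evidence.

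The tissue-specific beta subunits replace constitutive ones in certain cells, for example in immune cells, where the exchange alters the peptides made for antigen presentation. They were low in all libraries. Psmb10, the counterpart of Psmb7, had 0.66, 0, 0.616 and 0.333 FPKM in TCC libraries 1 to 4, against 2.73, 4.43, 6.55 and 5.99 FPKM in controls 1 to 4. TCC libraries were below 1 FPKM and controls above it (log2 change -2.06, SE 0.28, adjusted p = 0.000231). It passed the filter on low values through the controls alone. Psmb8, the counterpart of Psmb5, was at 0 to 0.85 FPKM in TCC libraries, against 0.398 to 2.45 FPKM in controls. The thymus form Psmb11 was at 0.034 to 0.29 FPKM in TCC libraries, against 0.215 to 0.457 FPKM in controls. Beside these, the summed level of 5 leukocyte markers was 2.25 to 3.58 FPKM with TCC, against 9.60 to 13.3 FPKM in controls. Coro1a was at 0 to 0.216 FPKM with TCC, against 2.37 to 3.97 FPKM in controls, and Cd52 at 0 to 1.06 FPKM with TCC, against 1.92 to 6.22 FPKM in controls. Laptm5 was at 2.06 to 2.81 FPKM with TCC, against 1.15 to 4.25 FPKM in controls, Cd74 at 0 to 0.339 FPKM with TCC, against 0.057 to 3.78 FPKM in controls, and Ptprc at 0.016 to 0.038 FPKM with TCC, against 0 to 0.023 FPKM in controls, with overlap of the groups for each. The part of the leukocyte markers in the result was not tested.

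The base of the regulatory particle holds 6 ATPases that unfold the substrate, of which 0 rose, 1 fell and 5 did not pass (limma; 2 had an unadjusted p under 0.05). Over all genes tested 11.3% rose and 30.8% fell. Psmc3 fell, with 12.2, 9.31, 14.3 and 16.4 FPKM in TCC libraries 1 to 4, against 18.1, 25.3, 28.6 and 35.3 FPKM in controls 1 to 4. TCC library 4 and control 1 were near each other, without overlap (log2 change -0.97, SE 0.28, adjusted p = 0.0161). The call was lost without control 4 or controls 3 and 4 together, with median-of-ratios scaling and with quantile normalization, and the adjusted p was 0.00611 to 0.11 over the 21 alternatives. Exons of Psmc3 overlap those of Slc39a13 on the opposite strand over 8.2% of their length. Psmc5 had the highest mean of the ATPases, with 51.0, 31.7, 48.8 and 40.8 FPKM in TCC libraries 1 to 4, against 14.6, 15.6, 36.9 and 37.3 FPKM in controls 1 to 4. TCC library 2 lay below controls 3 and 4 (log2 change 0.81, SE 0.35, adjusted p = 0.0868). The change of Psmc5 was 1.43 against controls 1 and 2 alone (adjusted p = 0.00481) and 0.19 against controls 3 and 4 alone (adjusted p = 0.571; 0.00481 to 0.571 over the 21 alternatives). Psmc1, Psmc2, Psmc4 and Psmc6 did not pass, with log2 changes of 0.51, 0.46, -0.32 and 0.40.

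Of the 3 other base subunits with a Psmd symbol, 2 rose, 0 fell and 1 did not pass (limma; 2 had an unadjusted p under 0.05). The shares over all genes tested were 11.3% risen and 30.8% fallen. Psmd2 and Psmd1 encode the large scaffold proteins of the base. Psmd2 had 41.8, 33.4, 35.9 and 35.0 FPKM in TCC libraries 1 to 4, against 20.3, 20.3, 17.2 and 13.3 FPKM in controls 1 to 4. Every TCC library was above every control (log2 change 1.01, SE 0.24, adjusted p = 0.00566). Psmd1 had 57.6, 32.0, 41.2 and 36.2 FPKM in TCC libraries 1 to 4, against 25.3, 24.0, 24.1 and 19.6 FPKM in controls 1 to 4, also with no overlap (log2 change 0.79, SE 0.26, adjusted p = 0.0269). The call on Psmd1 was lost without control 3 or 4, controls 3 and 4 together or TCC library 1, 3 or 4, and the adjusted p was 0.00411 to 0.098 over the 21 alternatives. The ubiquitin receptor gene Psmd4 had the highest mean here, with 117, 62.5, 99.4 and 74.3 FPKM in TCC libraries 1 to 4, against 63.7, 78.7, 72.6 and 91.1 FPKM in controls 1 to 4. The groups were intermingled (log2 change 0.17, SE 0.27, adjusted p = 0.631).

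In the lid, of 8 genes with a Psmd symbol 0 rose, 5 fell and 3 did not pass (limma; 5 had an unadjusted p under 0.05). Over all genes tested 11.3% rose and 30.8% fell. The median log2 change of the 8 was -1.03, beside -0.19 over all genes tested. Sem1, a lid subunit gene outside the symbol rule, is given below. Psmd14 encodes the enzyme of the lid that cuts ubiquitin chains off substrates, and Psmd7 the subunit with which it pairs. Psmd7 (chromosome 8, 107580381 to 107588464, minus strand) had 16.6, 5.16, 18.1 and 16.1 FPKM in TCC libraries 1 to 4, against 34.7, 43.0, 133 and 151 FPKM in controls 1 to 4. TCC libraries were below all controls, TCC library 2 the lowest, and controls 3 and 4 were far above the rest (log2 change -2.46, SE 0.53, adjusted p = 0.00312). Psmd14 had 15.9, 12.02, 21.3 and 19.1 FPKM in TCC libraries 1 to 4, against 32.0, 36.6, 133 and 121 FPKM in controls 1 to 4. TCC library 2 was again the lowest and controls 3 and 4 the highest (log2 change -1.92, SE 0.46, adjusted p = 0.00601).

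Psmd13 was the lowest lid gene, with 1.32, 1.09, 1.31 and 0.712 FPKM in TCC libraries 1 to 4, against 2.97, 3.39, 5.47 and 7.13 FPKM in controls 1 to 4. TCC values were below all control values (log2 change -1.40, SE 0.28, adjusted p = 0.002). Its exons overlap those of Sirt3 on the opposite strand over 10.1% of their length. Psmd11, whose protein clamps the lid to the rest of the complex, was the highest lid gene, with 98.4, 49.95, 129 and 95.9 FPKM in TCC libraries 1 to 4, against 149, 120.0, 271 and 266 FPKM in controls 1 to 4. TCC library 3 lay above control 2, so the groups overlapped (log2 change -1.09, SE 0.37, adjusted p = 0.0315). The call on Psmd11 was lost without control 3 or 4, controls 3 and 4 together or TCC library 1, 2 or 4, with no filter on low values, with median-of-ratios scaling and with library weights, and the adjusted p was 0.00661 to 0.277 over the 21 alternatives. Psmd6 fell without overlap, with 18.5 to 32.7 FPKM in TCC libraries, against 37.4 to 77.7 FPKM in controls (log2 change -0.96, SE 0.32, adjusted p = 0.0288). Its call was lost without control 3 or 4, controls 3 and 4 together or TCC library 2 or 3, with no filter on low values, with median-of-ratios scaling and with quantile normalization, and the adjusted p was 0.0033 to 0.232 over the 21 alternatives. Psmd3, Psmd8 and Psmd12 did not pass, with log2 changes of -0.11, 0.04 and -0.66. Against controls 3 and 4 alone Psmd12 passed (log2 change -1.25, adjusted p = 0.00325; 0.00325 to 0.86 over the 21 alternatives).

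**Figure D3:**
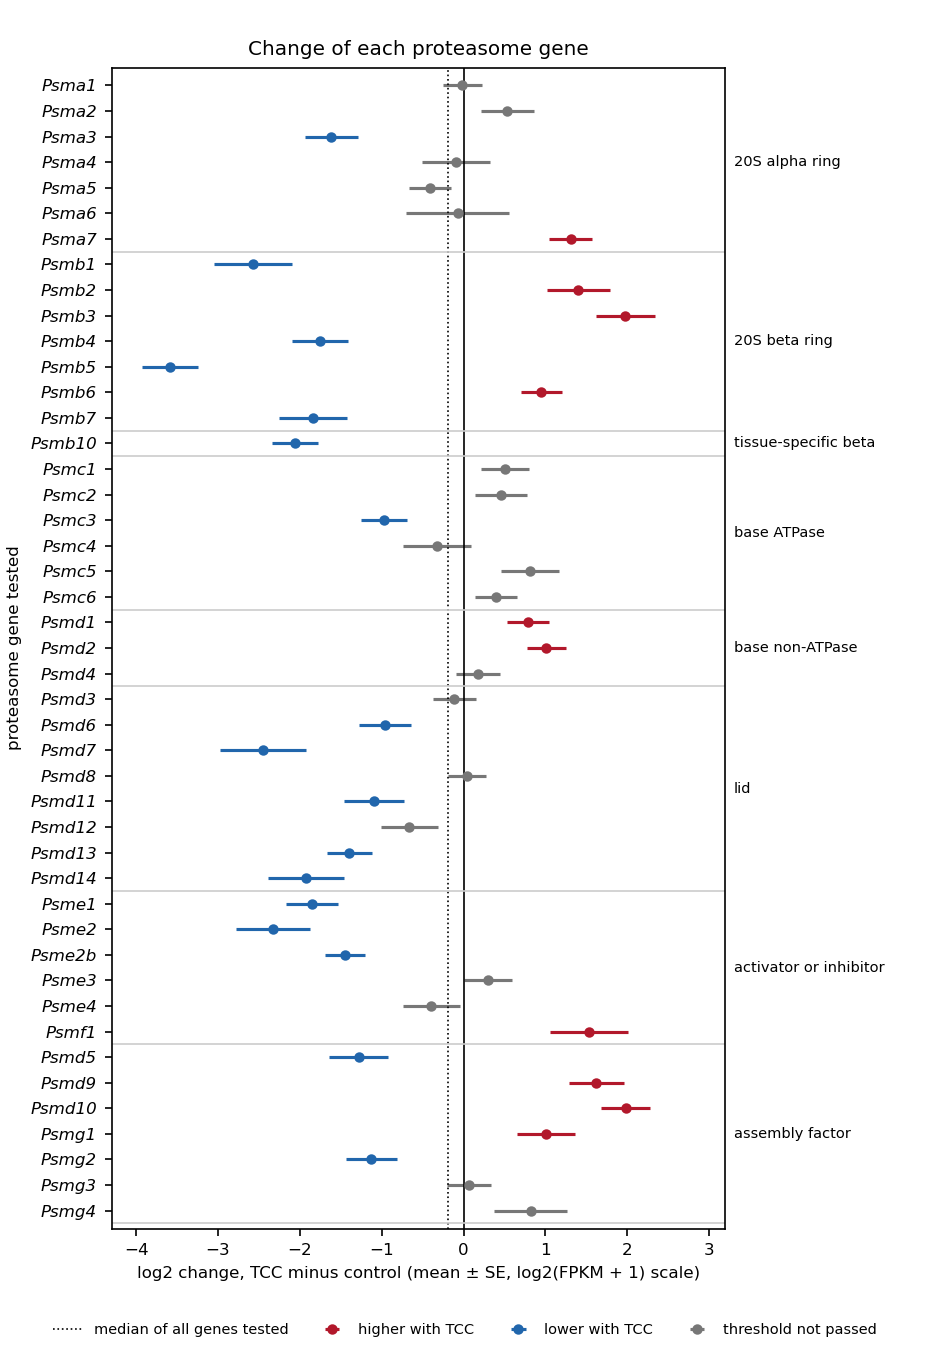
Log2 change, TCC minus control, of the 45 proteasome genes tested (points) with the standard error (bars), by part of the complex. The dotted line is the median of all genes tested, -0.19. Lid genes lie at or left of 0.04, and beta ring genes lie on both sides, with Psmb5 at -3.58 and Psmb3 at 1.98.

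Activators can take the place of the regulatory particle. Of the 6 activator and inhibitor genes, 1 rose, 3 fell and 2 did not pass, beside 11.3% risen and 30.8% fallen of all genes tested. Psme1 and Psme2 encode an activator ring that interferon induces. Psme1 had 1.72, 0.634, 0.238 and 1.32 FPKM in TCC libraries 1 to 4, against 5.29, 4.87, 9.71 and 4.52 FPKM in controls 1 to 4. Controls were above all TCC libraries, and control 3 was the highest (log2 change -1.85, SE 0.32, adjusted p = 0.000824). Psme2 had 2.07, 4.16, 2.58 and 2.14 FPKM in TCC libraries 1 to 4, against 7.73, 10.4, 37.8 and 28.5 FPKM in controls 1 to 4, likewise without overlap (log2 change -2.33, SE 0.45, adjusted p = 0.00179). Psme2b, a close copy of Psme2 with which reads could be shared, had 0.44, 0.603, 0.342 and 0.854 FPKM in TCC libraries 1 to 4, against 2.10, 2.75, 4.35 and 4.17 FPKM in controls 1 to 4. It was below 1 FPKM in every TCC library (log2 change -1.45, SE 0.24, adjusted p = 0.000743), and its value is uncertain because of the copy. Psme2b passed the filter on low values through the controls alone, so that its fall followed from the filter. Of the leukocyte markers given with the tissue-specific subunits, Coro1a and Cd52 were lower in every TCC library than in any control, and Laptm5, Cd74 and Ptprc were not. Their part in the result was not tested here either.

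Psme3 and Psme4 encode nuclear activators. Psme4 had the highest mean of the class, with 54.8, 185, 82.0 and 88.6 FPKM in TCC libraries 1 to 4, against 95.2, 129.6, 130.4 and 139 FPKM in controls 1 to 4. TCC library 2 was above every other library and TCC library 1 below all (log2 change -0.40, SE 0.35, adjusted p = 0.39). Without TCC library 2 Psme4 passed the threshold (log2 change -0.72, adjusted p = 0.0363; 0.0363 to 0.863 over the 21 alternatives). Psme3 had 92.6, 119.5, 98.2 and 102 FPKM in TCC libraries 1 to 4, against 113, 118, 61.8 and 57.7 FPKM in controls 1 to 4, and did not pass (log2 change 0.30, SE 0.29, adjusted p = 0.445). It was at -0.17 against controls 1 and 2 alone (adjusted p = 0.617) and at 0.77 against controls 3 and 4 alone (adjusted p = 0.0176; 0.0176 to 0.791 over the 21 alternatives).

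Psmf1, which encodes a protein named for its inhibition of the isolated core, rose. It had 68.3, 21.6, 26.2 and 44.3 FPKM in TCC libraries 1 to 4, against 22.3, 21.04, 6.35 and 6.30 FPKM in controls 1 to 4. TCC library 2 lay between controls 1 and 2, and the other TCC libraries were above all controls (log2 change 1.53, SE 0.48, adjusted p = 0.0236). This call was lost without control 3 or 4, controls 3 and 4 together or TCC library 1 or 4 and with no filter on low values, and the adjusted p was 0.00251 to 0.26 over the 21 alternatives.

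Assembly factors leave the complex once it is built. Of 7 genes, 3 rose, 2 fell and 2 did not pass, beside 11.3% risen and 30.8% fallen of all genes tested. Psmd10, Psmd9 and Psmd5 encode chaperones of the base ATPases. Psmd10 (chromosome X, 140948429 to 140956728, minus strand), the gene of gankyrin, had 80.9, 54.6, 69.9 and 74.4 FPKM in TCC libraries 1 to 4, against 20.9, 25.2, 10.8 and 13.8 FPKM in controls 1 to 4. TCC libraries exceeded all controls, of which controls 3 and 4 were the lowest, and the rise was the largest of the proteasome genes tested, just beside Psmb3 (log2 change 1.98, SE 0.30, adjusted p = 0.000384). Psmd9 had 57.2, 46.9, 66.6 and 72.3 FPKM in TCC libraries 1 to 4, against 28.1, 29.5, 11.9 and 12.5 FPKM in controls 1 to 4, again with no overlap (log2 change 1.62, SE 0.34, adjusted p = 0.00275). Its exons overlap those of the long noncoding gene Gm26745 on the opposite strand over 25.5% of their length. Psmd5 fell, with 45.6, 13.1, 22.9 and 20.3 FPKM in TCC libraries 1 to 4, against 52.4, 42.9, 66.6 and 72.6 FPKM in controls 1 to 4. TCC library 1 lay above control 2 (log2 change -1.28, SE 0.36, adjusted p = 0.0131). This call was lost without controls 3 and 4 together, and the adjusted p was 0.00333 to 0.118 over the 21 alternatives.

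Psmg1 and Psmg2 encode the partners of a dimer that starts the alpha ring. Psmg1 rose, with 72.7, 21.2, 57.8 and 52.0 FPKM in TCC libraries 1 to 4, against 24.9, 27.6, 19.5 and 19.4 FPKM in controls 1 to 4. TCC library 2 lay among the controls and the other TCC libraries above them (log2 change 1.01, SE 0.36, adjusted p = 0.0402). The call on Psmg1 was lost without control 3 or 4, controls 3 and 4 together or TCC library 1, 3 or 4 and with no filter on low values, and the adjusted p was 0.00161 to 0.223 over the 21 alternatives. Psmg2 fell, with 1.90 to 5.21 FPKM in TCC libraries, against 5.56 to 10.5 FPKM in controls (log2 change -1.13, SE 0.31, adjusted p = 0.0132). The call on Psmg2 was lost with quantile normalization, and the adjusted p was 0.00831 to 0.0674 over the 21 alternatives. Psmg3 and Psmg4, the partners of another such dimer, did not pass, with log2 changes of 0.06 and 0.82. Psmg4 was at 1.46 against controls 3 and 4 alone, where it passed (limma, adjusted p = 0.0292). Against controls 1 and 2 alone Psmg4 was at 0.18 (adjusted p = 0.809). It passed in 3 of the 21 alternatives (adjusted p 0.0292 to 0.809). Pomp, the gene of the maturation factor of the beta ring, lies outside the symbol rule. It had 87.1, 91.4, 95.7 and 118 FPKM in TCC libraries 1 to 4, against 38.6, 45.8, 90.9 and 77.8 FPKM in controls 1 to 4, and did not pass (log2 change 0.70, SE 0.31, adjusted p = 0.0863). The log2 change of Pomp was 1.19 against controls 1 and 2 alone, where it passed (adjusted p = 0.00647), and 0.21 against controls 3 and 4 alone (adjusted p = 0.468). It passed in 6 of the 21 alternatives (adjusted p 0.00647 to 0.468).

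**Figure D4:**
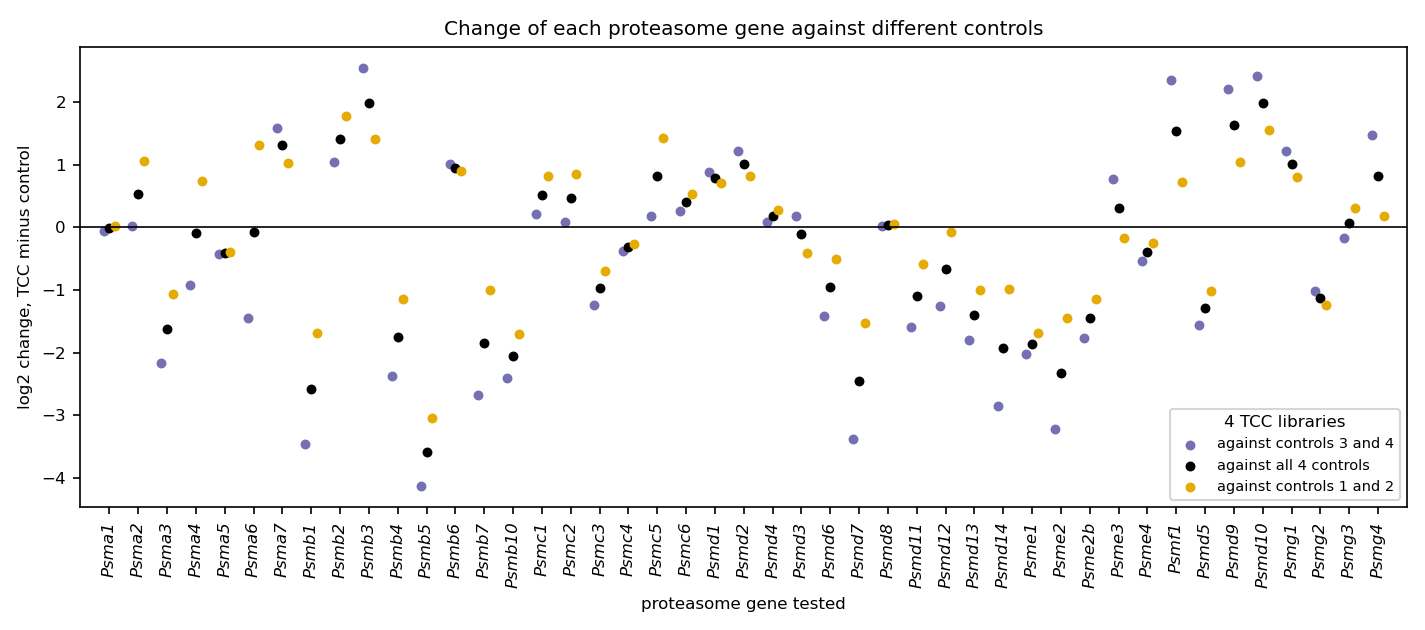
Log2 change, TCC minus control, of the 45 proteasome genes tested when the 4 TCC libraries are set against controls 3 and 4, all 4 controls, or controls 1 and 2. Psma6 lies on both sides of 0, at -1.44 and 1.304, while Psmb5 lies at -4.13 and -3.04.

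The sizes of many changes depended on which controls were used, as the plot of the control pairs shows. For Psmb5 the log2 change was -3.04 against controls 1 and 2 alone and -4.13 against controls 3 and 4 alone. For Psmb1 it was -1.69 against controls 1 and 2 alone and -3.46 against controls 3 and 4 alone, and for Psmb7 -1.01 against controls 1 and 2 alone and -2.67 against controls 3 and 4 alone. In the lid, Psmd7 was at -1.53 against controls 1 and 2 alone and -3.38 against controls 3 and 4 alone, and Psmd14 at -0.99 against controls 1 and 2 alone and -2.85 against controls 3 and 4 alone. Psmb4 was at -1.14 against controls 1 and 2 alone and -2.37 against controls 3 and 4 alone, Psma3 at -1.07 against controls 1 and 2 alone and -2.17 against controls 3 and 4 alone, and Psme2 at -1.45 against controls 1 and 2 alone and -3.21 against controls 3 and 4 alone. Falls of these 8 genes were deeper against controls 3 and 4. Rises were likewise larger against controls 3 and 4 for Psmb3, at 1.41 against controls 1 and 2 alone and 2.54 against controls 3 and 4 alone, for Psmd9, at 1.03 against controls 1 and 2 alone and 2.21 against controls 3 and 4 alone, and for Psmd10, at 1.55 against controls 1 and 2 alone and 2.41 against controls 3 and 4 alone. Others went the other way. The rise of Psmb2 was 1.77 against controls 1 and 2 alone and 1.04 against controls 3 and 4 alone, and the fall of Psmg2 -1.23 against controls 1 and 2 alone and -1.02 against controls 3 and 4 alone.

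Of the 10 genes that rose, 6 kept their direction and their side of the threshold in all alternatives in which they were tested: Psma7, Psmb3, Psmb6, Psmd2, Psmd9 and Psmd10. Of the 17 that fell, 12 did. Among these, Psmb10 and Psme2b passed the filter on low values through the controls alone, so that their falls followed from it. The others were Psma3, Psmb1, Psmb4, Psmb5, Psmb7, Psmd7, Psmd13, Psmd14, Psme1 and Psme2. Scaling moved the balance of the calls. The median log2 change of all genes tested became 0.06 with median-of-ratios scaling and 0.14 with quantile normalization. With median-of-ratios scaling 13 proteasome genes were higher and 14 lower, beside 20.4% and 24.6% of all genes tested. The ATPase genes Psmc1, Psmc5 and Psmc6 were then among the higher ones. With quantile normalization it was 14 and 14, beside 22.5% and 22.0%.

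Genes that work with the proteasome were taken from 5 lists with 36 genes in the table, all of them tested. Of these, 3 rose, 14 fell and 19 did not pass, beside 11.3% and 30.8% of all genes tested. Ubiquitin is made from several genes. Rps27a, whose product is ubiquitin fused to a protein of the small ribosomal subunit, had 19.4, 33.3, 24.9 and 37.6 FPKM in TCC libraries 1 to 4, against 71.5, 124, 171 and 186 FPKM in controls 1 to 4. The TCC libraries lay below all controls (log2 change -2.18, SE 0.34, adjusted p = 0.000496). Ubb, a gene of ubiquitin repeats, had 485, 253, 408 and 428 FPKM in TCC libraries 1 to 4, against 428, 456, 461 and 405 FPKM in controls 1 to 4, and did not pass (log2 change -0.19, SE 0.26, adjusted p = 0.596). Rps27a and Ubb share the ubiquitin sequence, and how the authors counted reads with several matches is unknown here.

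Shuttle receptors bring tagged proteins to the proteasome. Of 7 genes, 0 rose, 2 fell and 5 did not pass (limma; 2 had an unadjusted p under 0.05). Of all genes tested, 11.3% rose and 30.8% fell. Nub1, whose protein directs the ubiquitin relative NEDD8 and its conjugates to degradation, had 14.8, 13.7, 15.4 and 14.6 FPKM in TCC libraries 1 to 4, against 37.2, 32.0, 87.0 and 68.1 FPKM in controls 1 to 4. TCC libraries were close together and below all controls (log2 change -1.75, SE 0.33, adjusted p = 0.00134). Rad23b, a receptor with a ubiquitin-like domain, had 44.8 ± 35.6 FPKM with TCC and 40.0 ± 12.3 FPKM in controls (SD, n = 4 each) and did not pass, at a log2 change of -0.04.

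VCP is an ATPase that pulls tagged proteins out of membranes and complexes. Of 8 genes for it and its cofactors, 0 rose, 4 fell and 4 did not pass (limma; 4 had an unadjusted p under 0.05). Of all genes tested, 11.3% rose and 30.8% fell. Vcp fell, with 5.53 to 13.4 FPKM in TCC libraries, against 17.7 to 27.1 FPKM in controls (log2 change -1.35, SE 0.29, adjusted p = 0.00331). Ubxn1, a cofactor gene, had 10.5, 8.82, 9.96 and 13.5 FPKM in TCC libraries 1 to 4, against 50.6, 64.3, 175 and 148 FPKM in controls 1 to 4. TCC libraries were below all controls, and controls 3 and 4 the highest (log2 change -3.07, SE 0.39, adjusted p = 0.000159). Faf2, the gene of a cofactor at the endoplasmic reticulum, had 1.04, 0.225, 1.58 and 1.37 FPKM in TCC libraries 1 to 4, against 6.49, 8.76, 25.4 and 25.7 FPKM in controls 1 to 4 (log2 change -2.93, SE 0.44, adjusted p = 0.000401). Faf1, another cofactor gene, had 11.7, 10.7, 10.6 and 9.43 FPKM in TCC libraries 1 to 4, against 28.4, 20.9, 26.6 and 20.3 FPKM in controls 1 to 4 (log2 change -1.10, SE 0.23, adjusted p = 0.00313). In Faf1 and Faf2 the groups did not overlap.

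Of 9 genes for other proteins of the proteasome, 1 rose, 3 fell and 5 did not pass, beside 11.3% and 30.8% of all genes tested. Txnl1, a thioredoxin-like protein of the regulatory particle, had 60.0, 44.8, 64.2 and 68.4 FPKM in TCC libraries 1 to 4, against 29.5, 32.8, 21.5 and 19.8 FPKM in controls 1 to 4. Each TCC library was above each control (log2 change 1.18, SE 0.26, adjusted p = 0.00397). Adrm1, a ubiquitin receptor of the base, had 23.6, 15.8, 23.8 and 25.1 FPKM in TCC libraries 1 to 4, against 38.1, 32.8, 41.4 and 42.0 FPKM in controls 1 to 4, below every control in every TCC library (log2 change -0.79, SE 0.24, adjusted p = 0.0219). The call on Adrm1 was lost without control 3 or 4 or controls 3 and 4 together, with median-of-ratios scaling and with quantile normalization, and the adjusted p was 0.0128 to 0.125 over the 21 alternatives. Sem1, the smallest lid subunit, had 52.8, 35.4, 51.8 and 69.4 FPKM in TCC libraries 1 to 4, against 63.3, 87.0, 132 and 182 FPKM in controls 1 to 4. TCC library 4 lay above control 1 (log2 change -1.06, SE 0.35, adjusted p = 0.0293). The call on Sem1 was lost without control 3 or 4, controls 3 and 4 together or TCC library 1, 2 or 3, with no filter on low values and with median-of-ratios scaling, and the adjusted p was 0.00295 to 0.238 over the 21 alternatives. Ube3c, a ubiquitin ligase at the proteasome, fell, with 8.94 to 12.5 FPKM in TCC libraries, against 15.7 to 19.6 FPKM in controls (log2 change -0.68, SE 0.23, adjusted p = 0.0366). The call on Ube3c was lost without control 1, 2, 3 or 4, controls 1 and 2 together or TCC library 1, 3 or 4, after rescaling to TPM, with median-of-ratios scaling and with quantile normalization, and the adjusted p was 0.0048 to 0.325 over the 21 alternatives. The deubiquitinase genes Usp14 and Uchl5 did not pass, at log2 changes of 0.24 and 0.51. Uchl5 had 15.9 to 17.2 FPKM in TCC libraries, against 10.5 to 12.6 FPKM in controls, without overlap (limma, SE 0.22, adjusted p = 0.0844). Uchl5 passed in 4 of the 21 alternatives (adjusted p 0.00663 to 0.185).

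Of 8 regulators of proteasome gene transcription, import or activity, 2 rose, 2 fell and 4 did not pass, beside 11.3% and 30.8% of all genes tested. Akirin2, which brings proteasomes into the nucleus, had 342, 808, 354 and 463 FPKM in TCC libraries 1 to 4, against 208, 292, 132 and 142 FPKM in controls 1 to 4. TCC libraries were above all controls, TCC library 2 the highest (log2 change 1.33, SE 0.35, adjusted p = 0.0105). The call was lost without controls 3 and 4 together, and the adjusted p was 0.00313 to 0.11 over the 21 alternatives. Its relative Akirin1 had 4.87, 3.00, 4.35 and 3.88 FPKM in TCC libraries 1 to 4, against 34.2, 24.6, 19.7 and 22.6 FPKM in controls 1 to 4, with TCC libraries far below the controls (log2 change -2.37, SE 0.26, adjusted p = 8.54e-05). Zfand2a, a stress-induced protein that binds the proteasome, had 5.65, 5.85, 4.25 and 5.45 FPKM in TCC libraries 1 to 4, against 21.3, 24.5, 39.0 and 44.8 FPKM in controls 1 to 4, also without overlap (log2 change -2.35, SE 0.29, adjusted p = 0.000141). Ngly1, the gene of the enzyme that strips sugars from NFE2L1, rose, with 48.2 to 62.6 FPKM in TCC libraries, against 13.5 to 44.9 FPKM in controls (log2 change 1.08, SE 0.36, adjusted p = 0.0308). The call on Ngly1 was lost without control 3 or 4, controls 3 and 4 together or TCC library 1, 3 or 4 and with no filter on low values, and the adjusted p was 0.000483 to 0.24 over the 21 alternatives. Nfe2l1 itself, the gene of the transcription factor that raises proteasome genes when proteasome activity is short, had 22.3, 43.1, 12.6 and 35.8 FPKM in TCC libraries 1 to 4, against 22.1, 35.0, 16.6 and 18.3 FPKM in controls 1 to 4. Its groups overlapped and it did not pass (log2 change 0.22, SE 0.39, adjusted p = 0.683). Ddi2, the protease that releases it, was at a log2 change of -0.01, and the related factor gene Nfe2l2 at -0.32.

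**Figure D5:**
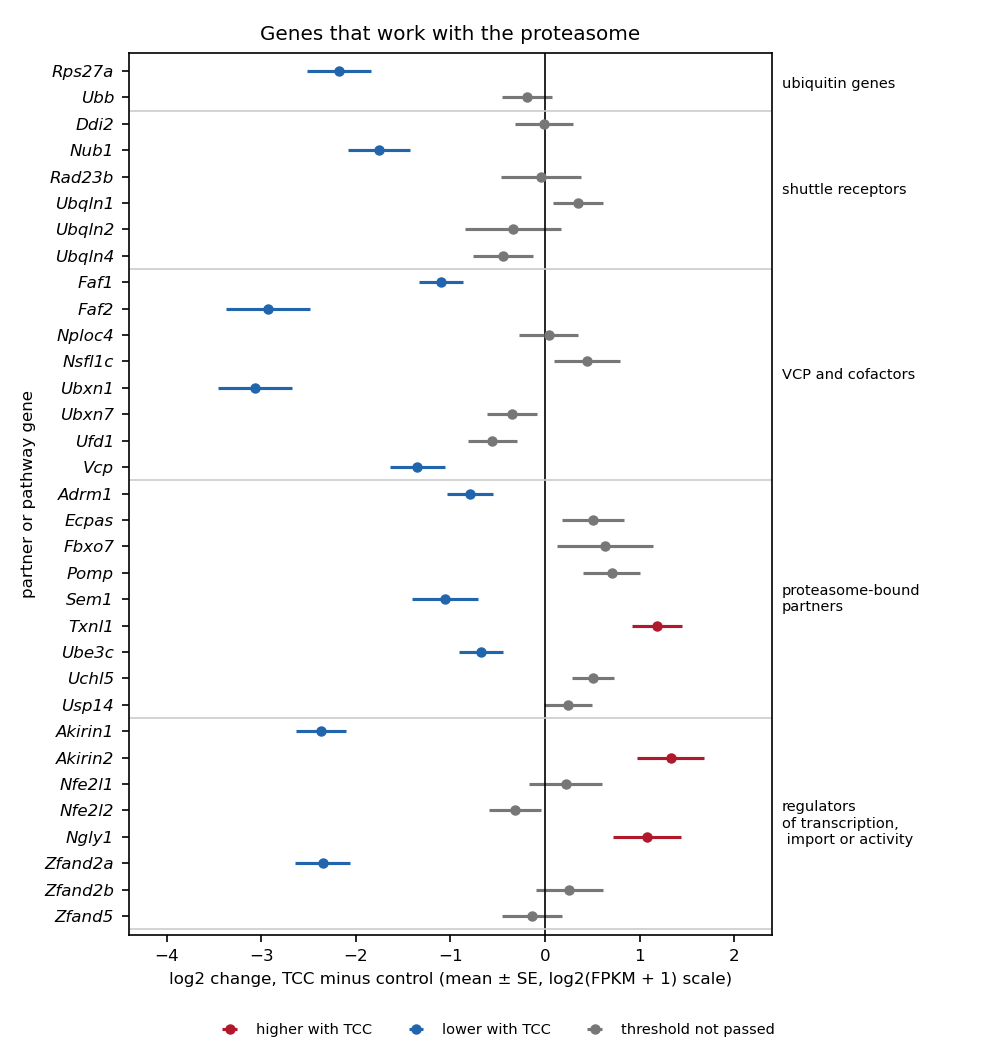
Log2 change, TCC minus control, of genes that work with the proteasome (points) with the standard error (bars), by list. Of the genes drawn, Ubxn1 lies farthest to the left at -3.07 and Akirin2 farthest to the right at 1.33.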

How the data were processed

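Polyadenylated RNA was read in pairs of 150 bases for 4 TCC and 4 control libraries, per the labels' protocols. These describe both a kit for total RNA and 16 to 18 cycles of cDNA preamplification, and do not say which applied. The authors deposited 1 table of FPKM values. The submitters' processing notes name STAR, StringTie, featureCounts, DESeq2 1.30.1 and mm10, in no stated role. The annotation, strand setting and handling of multiply matched reads were not given in the sources used here.

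Table columns were assigned to samples by name, and no libraries were identical. Gene identifiers were matched, version aside, to GENCODE M21 (GRCm38; 87.4% matched) for symbols and 1-based coordinates. Whole reads could not be recovered: 5.4 to 7.1% of low values came within 0.02 of a whole fragment, where chance gives 4%. Depth was therefore a rough estimate, 6900000 to 14800000 fragments per library.

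Genes were tested on log2(FPKM + 1), which understates changes of low genes, if 4 of 8 libraries reached 1 FPKM. The test was limma 3.58.1 in R 4.3.3 (eBayes with trend, treatment as the only term, 6 residual degrees of freedom, two-sided), with p-values adjusted by Benjamini-Hochberg over every gene tested, at a threshold of 0.05. The step was tested on simulated data. The members, lists and tests were chosen with earlier results of these data known. Values in every library are given for the 2 genes of each class with the smallest adjusted p past the threshold, the highest gene of each class, all members that rose and up to 3 genes past the threshold of each partner list. Some partner genes that this rule chose are not reported here. Psmb1, Psmb7, Psma4, Psma6, Psmd14, Psmd5, Psme2, Psme3, Pomp, Ubb and Nfe2l1 were added after their values were seen. Of the 48 proteasome genes, 10 share exonic bases with a gene on the opposite strand. The 21 alternatives were pseudocounts of 0.1 and 5, no filter or one of 5 FPKM, TPM with and without mitochondrial genes, median-of-ratios and quantile scaling, a replicate block, library weights, eBayes with no trend, each library left out, and each pair of controls left out.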

Additional observations from a re-analysis of the deposited data

Results flagged for a closer look

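A library lay far from the other 3 of its group in 5 of 126 groups looked at, where chance gives about 1 in 20. Psmc6 was at 20.3 FPKM in TCC library 2, against 32.0 to 33.0 FPKM in the other TCC libraries, and without that library Psmc6 passed the threshold (log2 change 0.56, adjusted p = 0.0487; 0.0291 to 0.45 over the 21 alternatives). Psmd7 was at 5.16 FPKM in TCC library 2, against 16.1 to 18.1 FPKM in the other TCC libraries. Adrm1 was at 15.8 FPKM in TCC library 2, against 23.6 to 25.1 FPKM in the other TCC libraries. Psme1 was at 9.71 FPKM in control 3, against 4.52 to 5.29 FPKM in the other controls. Psmc3ip was at 79.9 FPKM in control 4, against 37.2 to 42.3 FPKM in the other controls.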

How the results depend on the processing

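Leaving out each library in turn gave 7 to 11 proteasome genes higher and 14 to 18 lower, 2 to 4 partner genes higher and 10 to 13 lower, and 953 to 1860 of all genes higher and 3469 to 4180 lower. No proteasome or partner gene past the threshold turned its direction in any of the 21 alternatives. Among those that missed it, the ones that turned and then passed were Psma4, at 0.74, and Psma6, at 1.304, both without controls 3 and 4. Partner genes higher were 5 with median-of-ratios scaling, quantile normalization and library weights alike. All genes higher numbered 2638 with median-of-ratios scaling, 2915 with quantile normalization, 2838 against controls 3 and 4 alone and 695 against controls 1 and 2 alone. With the filter of 5 FPKM, which tests fewer genes, 2492 were lower. The cause of the other shifts was not tested.

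With the replicate number as a block, 10 proteasome genes were higher and 17 lower, as without it, beside 11.9% and 31.4% of all genes tested. Across genes, same-numbered libraries deviated together with r of 0.34, 0.05, 0.095 and 0.10, which is not over 0.1 in every pair, so the numbers were not taken to pair the libraries. As a hint from the data, TCC libraries 1, 3 and 4 each correlated best with the control of the same number, and TCC library 2 with control 4. Depth is not known exactly, and differences in Psma8, Psmb8 and Psmb11, which did not pass the filter, were not tested.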

Other observations

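Psmc3ip, whose product helps homologous chromosomes recombine in meiosis, had 9.75, 6.73, 7.91 and 8.73 FPKM in TCC libraries 1 to 4, against 37.2, 41.5, 42.3 and 79.9 FPKM in controls 1 to 4. The groups did not overlap (log2 change -2.41, SE 0.29, adjusted p = 0.000122). Its exons overlap those of Mlx on the opposite strand over 21.2% of their length. Of the proteasome pseudogenes, Psmb6-ps was at 1.17, 0.121, 0.783 and 1.63 FPKM in TCC libraries 1 to 4, against 2.62, 4.51, 3.25 and 2.17 FPKM in controls 1 to 4. Every TCC library was below every control, while Psmb6 itself rose. Psmb5-ps was at 0 to 0.706 FPKM with TCC and 0 to 0.342 FPKM in controls. Psmb7-ps2 was at 0 to 1.497 FPKM with TCC and 0.125 to 1.19 FPKM in controls. The pseudogenes were not tested. Among the other marker lists, 7 later embryo genes summed to 8.69 to 22.7 FPKM with TCC, against 3.62 to 7.98 FPKM in controls, 11 cumulus and granulosa genes to 15.9 to 21.9 FPKM with TCC, against 14.1 to 21.9 FPKM in controls, and 6 sperm genes to 7.23 to 10.4 FPKM with TCC, against 1.12 to 5.90 FPKM in controls. Of the later embryo genes, Gata3 was at 2.17 to 17.8 FPKM with TCC, against 0.304 to 1.29 FPKM in controls. The groups overlapped for Gata6, Nanog, Krt8, Krt18, Sox17 and Cdx2. Of the sperm genes, Prm2 was at 6.87 to 8.90 FPKM with TCC, against 1.12 to 5.01 FPKM in controls. The others were at 1.06 FPKM (Odf1 in TCC library 3) or below in every library.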
